A study of Mus musculus with 4 samples.

Results

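The collagen genes of the mouse were followed in single cells of the juvenile testis, in vivo and in organ culture. They were taken as every gene symbol that consists of Col, a number, the letter a and a second number. The gene list held 44 such symbols among 31017, and 40 of them had at least 50 unique molecular identifiers (UMIs, tags that let each captured RNA molecule be counted once) in the cells kept, as did 16622 of all symbols. Col10a1 with 1 UMI, Col19a1 with 12, Col28a1 with 14 and Col9a1 with 46 were below that minimum, and Col24a1 with 73 UMIs was the member just above it. The 40 members are described below by the structure they build, with gene positions from GENCODE M21 on the GRCm38 assembly.

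Collagens are secreted or membrane-bound proteins whose chains wind into a triple helix. Fibrillar collagens give connective tissue its strength, and type IV collagens form the sheet of every basement membrane. Types XV and XVIII lie at the border between basement membranes and stroma, and transmembrane types sit on the cell surface. In the testis each seminiferous tubule is wrapped in a basement membrane that Sertoli cells and peritubular myoid cells lay down together, with Leydig cells, fibroblast-like stroma and vessels between the tubules.

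All samples were testes of C57BL/6 mice carrying a GFP transgene driven by the acrosin (Acr) promoter, a reporter of developing male germ cells. Testes taken at 7 days postpartum (dpp) were freed of their capsule, and pieces of them were kept for 2 days (the 2-day culture) or 7 days (the 7-day culture) on an agarose gel, beneath a chip of PDMS, with α-MEM medium that held AlbuMAX. The other 2 groups were testes of 9 dpp and 14 dpp that had grown in vivo, the ages the cultured fragments had reached. Cells were released with collagenase I and trypsin and made into 3′ single-cell RNA libraries on the Chromium platform, with 1 library per group and no statement of how many animals went into each.

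Because each group was 1 library, no test between groups was possible, and every ratio below compares libraries. The 95% intervals cover counting error only. The libraries kept 6879 cells after 2 days and 4817 after 7 days of culture, 5146 at 9 dpp and 6219 at 14 dpp, with between 32072511 and 57503743 UMIs each, and any pair shared 35 to 86 cell barcodes. Classes were set from marker UMIs with no collagen among the markers: 2524 to 3672 germ-like cells per library, 541 to 1195 Sertoli-like, 55 to 78 Leydig-like and 1102 to 2426 stromal- or myoid-like, so the defining cells of the testis were present in all 4. Within 1 class the share of cells close to its limits was 2.14% for germ-like, 2.24% for Sertoli-like, 7.38% for Leydig-like and 1.84% for stromal- or myoid-like cells. The median cell held at most 2, 4, 11 and 2 UMIs of any other class's markers in these classes, against at least 30, 49, 56 and 33 of its own. Levels are UMIs in every 1000000 UMIs of the same cells (CPM), and since a molecule counts once whatever its length, levels of different genes were compared only as captured molecules. Where 4 values stand without names, their order is culture for 2 days, culture for 7 days, 9 dpp and then 14 dpp. The early pair is the 2-day culture set against 9 dpp, and the late pair is the 7-day culture set against 14 dpp.

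Most collagen RNA of these testes came from the stromal- or myoid-like cells, which gave 84.1% of all 299879 collagen UMIs. Sertoli-like cells gave 5.2%, germ-like cells 2.4%, Leydig-like cells 2.0%, endothelial-like cells 1.2% and pericyte-like cells 0.9%. Stromal- or myoid-like cells were the largest source of 31 of the 40 members. Sertoli-like cells were the largest source of 5 (Col6a5, Col6a6, Col9a3, Col18a1 and Col24a1) and germ-like cells of 4 (Col2a1, Col11a2, Col20a1 and Col22a1). In every library 25 members had their highest level of the 4 larger classes in stromal- or myoid-like cells, 3 had it in Sertoli-like cells (Col9a3, Col11a2 and Col18a1), and Col14a1 alone had it in Leydig-like cells.

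**Figure D1:**
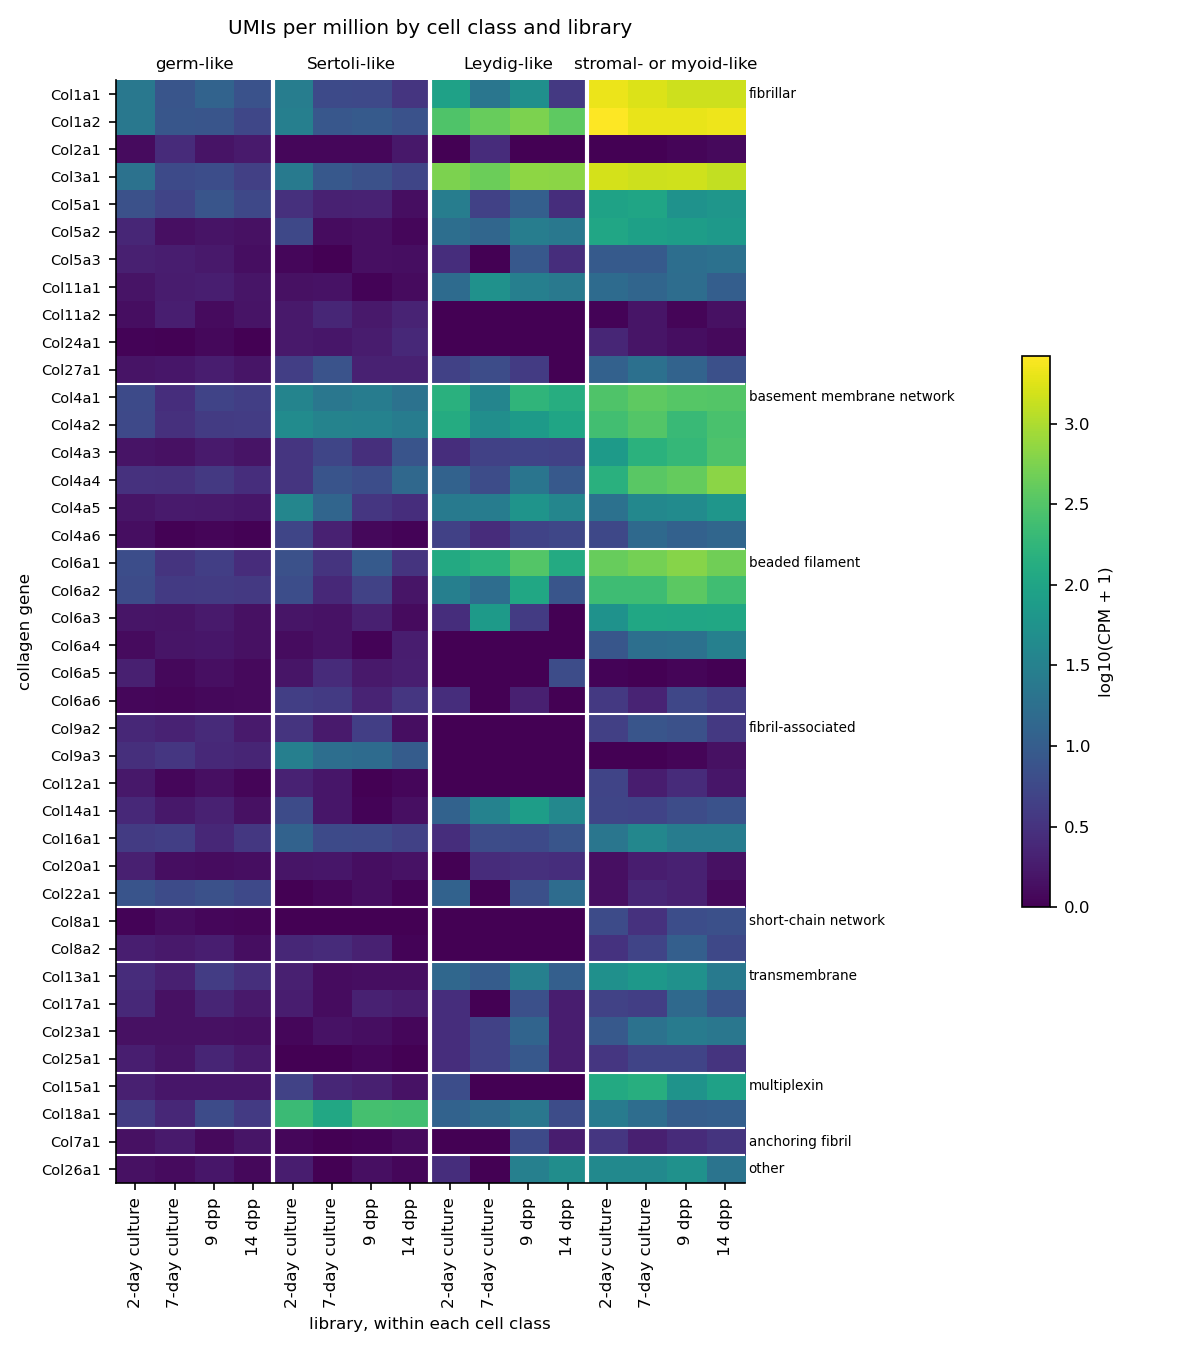
Level of the 40 collagens (rows, grouped by structure) in the 4 larger cell classes and 4 libraries (columns), coloured by log10 of CPM plus 1. The bright block is the stromal- or myoid-like class, led by Col1a1, Col1a2 and Col3a1, and Col18a1 is bright in Sertoli-like cells instead.

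When stromal- or myoid-like cells were thinned to 2000 UMIs each, a median of 6 different collagen genes was detected per cell after 2 days and 6 after 7 days of culture, 7 at 9 dpp and 6 at 14 dpp. The unthinned medians were 8, 9, 10 and 9, and thinning left out 36 to 260 cells per library of this class, 28 to 438 germ-like cells and 14 to 456 Sertoli-like cells, each time most in the 2-day culture. Germ-like cells thinned the same way had a median of 0 in all 4 libraries.

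Collagens made up 0.31% of all UMIs after 2 days and 0.17% after 7 days of culture, 0.15% at 9 dpp and 0.09% at 14 dpp. Their summed level in the whole library was 2.02-fold higher in culture for the early pair and 1.84-fold higher for the late pair. Inside the stromal- or myoid-like class the same 2 ratios were 1.08 and 1.02. That class held 32.8% of the UMIs after 2 days and 18.6% after 7 days of culture, 16.3% at 9 dpp and 8.70% at 14 dpp, so the whole-library levels carry the share of these cells as well as the level within them. When every cell was given the same weight, the whole-library ratios were 1.27 and 1.53.

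In whole libraries 7 of the 40 members were at least 2-fold higher in the 2-day culture than at 9 dpp and 0 were as far lower. Over all 16622 genes the shares past 2-fold were 4.2% higher and 3.41% lower. The 7 were Col1a1, Col1a2, Col3a1, Col5a1, Col5a2, Col12a1 and Col15a1, of which 5 are fibrillar. With every cell weighted the same, 0 members were past 2-fold higher and 1 was lower in that pair, beside 3.23% and 3.12% of genes. Between the 7-day culture and 14 dpp, 10 members were past 2-fold higher and 0 lower, beside 3.58% and 2.65% of all genes: Col1a1, Col3a1, Col5a1, Col5a2, Col6a1, Col6a3, Col13a1, Col15a1, Col26a1 and Col27a1. With equal weights 6 were higher, beside 2.85% of genes. In both pairs 21 of the 40 members were on the culture side, 4 on the in vivo side and 15 on opposite sides, beside 27.8%, 40.2% and 31.7% of all genes. The median log2 ratio of the members was 0.30 in the early pair and 0.52 in the late pair, beside -0.12 and 0.00 over all genes tested. With equal weights the members' medians were 0.01 and 0.53, beside -0.09 and -0.01.

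**Figure D2:**
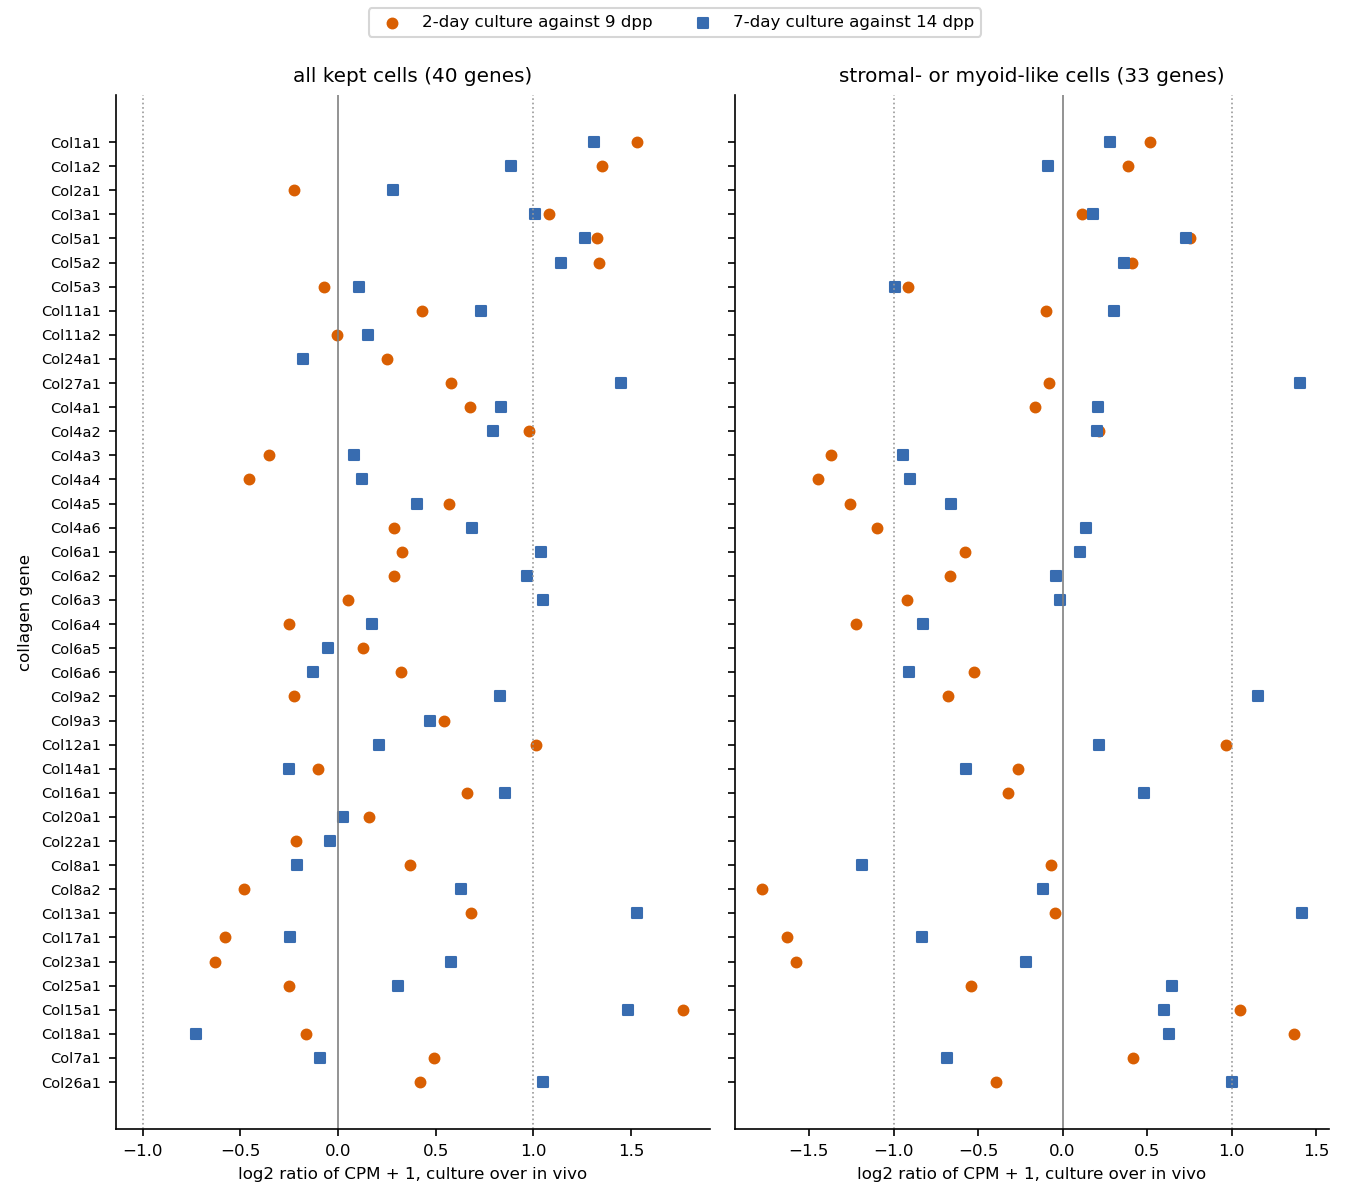
Log2 ratio of CPM plus 1, culture over in vivo, for each collagen (rows) in whole libraries (left, 40 genes) and in stromal- or myoid-like cells (right, 33 genes), with circles for the 2-day culture against 9 dpp and squares for the 7-day culture against 14 dpp. Dotted lines mark 2-fold, which 7 circles and 10 squares pass to the right in whole libraries, against 2 and 4 within the class, where 8 circles and 1 square pass to the left.

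Between the ages in vivo 34 of the 40 members were on the lower side at 14 dpp in whole libraries, with a median log2 ratio of -0.42 beside -0.04 over all genes. In stromal- or myoid-like cells the median was -0.03, beside -0.03. In whole libraries 6 were at least 2-fold lower than at 9 dpp (Col6a1, Col6a2, Col8a2, Col9a2, Col13a1 and Col26a1) and 0 were higher, beside 1.97% and 4.08% of all genes. The 7-day culture had 4 members at least 2-fold lower than the 2-day culture (Col1a1, Col1a2, Col5a2 and Col12a1) and 0 higher, beside 2.37% and 4.51% of all genes. With every cell weighted the same none of these 4 was past 2-fold, with log2 ratios of -0.53, -0.65, -0.46 and -0.86. Col18a1 was then the 1 member lower, beside 2.00% of genes. The comparisons by age and by culture share their libraries, so they are not separate evidence.

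Within stromal- or myoid-like cells the split was different. Of 33 members with enough UMIs there, 2 were past 2-fold higher in the 2-day culture than at 9 dpp (Col15a1 and Col18a1) and 8 were lower (Col4a3, Col4a4, Col4a5, Col4a6, Col6a4, Col8a2, Col17a1 and Col23a1), beside 5.79% and 7.27% of the 12131 genes tested in that class. At equal weights Col18a1 was higher and 5 were lower (Col4a4, Col5a3, Col8a2, Col17a1 and Col23a1), beside 5.75% and 6.40%. In the late pair 4 were higher (Col9a2, Col13a1, Col26a1 and Col27a1) and Col8a1 was lower, beside 5.07% and 4.61%. Both pairs put 8 members on the culture side and 13 on the in vivo side, and the other 12 had opposite signs, beside 24.2%, 41.8% and 34.0% of the genes tested there. The members' median log2 ratio was -0.33 (early) and 0.14 (late), beside -0.18 and -0.02 over all genes of the class. From 9 to 14 dpp 2 members were lower in the class (Col13a1 and Col26a1) and 0 higher, beside 2.98% and 2.07%. From the 2-day to the 7-day culture 6 were higher (Col4a3, Col4a4, Col4a5, Col4a6, Col6a4 and Col23a1) and Col12a1 was lower, beside 3.31% and 3.43%.

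The fibrillar genes Col1a2, Col1a1 and Col3a1 held 72.2% of the collagen UMIs after 2 days and 61.8% after 7 days of culture, 57.9% at 9 dpp and 54.8% at 14 dpp. Col1a1 (ENSMUSG00000001506, chr11:94936224-94953042) and Col1a2 (ENSMUSG00000029661, chr6:4504814-4541544) encode the chains of type I collagen, the main fibril of most connective tissue. Col1a1 stood at 724 CPM after 2 days and 338 after 7 days of culture, 250 at 9 dpp and 136 at 14 dpp. It was highest in the 2-day culture, and each culture stood above the testis of the matching age, by 2.90-fold (2.84 to 2.96) and 2.50-fold (2.43 to 2.57). With every cell weighted the same, those ratios were 1.67 and 1.84.

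Within stromal- or myoid-like cells Col1a1 measured 2089 CPM after 2 days and 1734 after 7 days of culture, 1459 at 9 dpp and 1430 at 14 dpp. The order of the libraries was the same and the distances smaller, 1.43-fold (1.40 to 1.46) and 1.21-fold (1.18 to 1.25). Its RNA was found in 92.7%, 86.5%, 88.4% and 86.7% of these cells after thinning to 2000 UMIs (96.5%, 94.6%, 97.8% and 95.3% unthinned). Germ-like cells, which are not known as a source of type I collagen, had a Col1a1 UMI in 4.75%, 1.07%, 2.00% and 1.05% of thinned cells (7.95%, 5.03%, 11.5% and 4.90% unthinned), the level to which free RNA in the droplets can be compared.

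Col1a2 had the most UMIs of all members, 77188. Whole libraries held 916 CPM of it after 2 days and 402 after 7 days of culture, 358 at 9 dpp and 217 at 14 dpp, and stromal- or myoid-like cells held 2630, 2000, 2013 and 2126 in that order. Within the class only the 2-day culture stood apart, 1.31-fold (1.28 to 1.33) above 9 dpp, while the 7-day culture was 0.941-fold (0.917 to 0.965) of 14 dpp. The ratio of Col1a1 to Col1a2 molecules in the class was 0.794, 0.867, 0.725 and 0.673, higher in both cultures than in both testes grown in vivo.

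Col3a1 (ENSMUSG00000026043, chr1:45311538-45349706), the type III chain of elastic and early connective tissue, differed little within the class. Its whole-library levels were 575, 298, 271 and 148 CPM. In stromal- or myoid-like cells they were 1604, 1450, 1480 and 1279, with ratios of 1.08 (1.06 to 1.11) and 1.13 (1.10 to 1.17), so the class showed little of its 2.12-fold and 2.02-fold distances between whole libraries. With every cell weighted the same the class ratios were 0.966 and 0.96, on the other side.

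Col5a1 (ENSMUSG00000026837, chr2:27886425-28039514) and Col5a2 encode type V collagen, which starts type I fibrils and limits their width. Col5a1 measured 93.6 CPM in stromal- or myoid-like cells after 2 days and 102 after 7 days of culture, 55.2 at 9 dpp and 60.9 at 14 dpp. Both cultures lay above both in vivo libraries, with like ratios of 1.70 (1.52 to 1.89) and 1.67 (1.45 to 1.91). Col5a2 followed with less distance, at 105, 86.2, 78.6 and 66.8 CPM and ratios of 1.33 and 1.29. The third type V chain, Col5a3, was on the other side, at 8.27 and 8.40 CPM in the 2 cultures against 16.4 at 9 dpp and 17.7 at 14 dpp, which is 0.503-fold (0.382 to 0.658) and 0.476-fold (0.335 to 0.671). The counts use CPM plus 1, by which Col5a3 was not past 2-fold in the class in either pair. The type V genes were thus not all on one side: 2 chains were higher and 1 lower in cultured cells of the class.

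The remaining fibrillar members were scarce. Col11a1 and Col27a1, best known from cartilage, had 676 and 561 UMIs in all, and Col2a1, Col11a2 and Col24a1 had 93, 106 and 73. Col27a1 in stromal- or myoid-like cells was at 10.5 CPM after 2 days and 17.2 after 7 days of culture, 11.1 at 9 dpp and 5.89 at 14 dpp. It therefore differed only in the later pair, 2.93-fold (1.94 to 4.56), against 0.941-fold (0.713 to 1.24) in the earlier one.

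**Figure D3:**
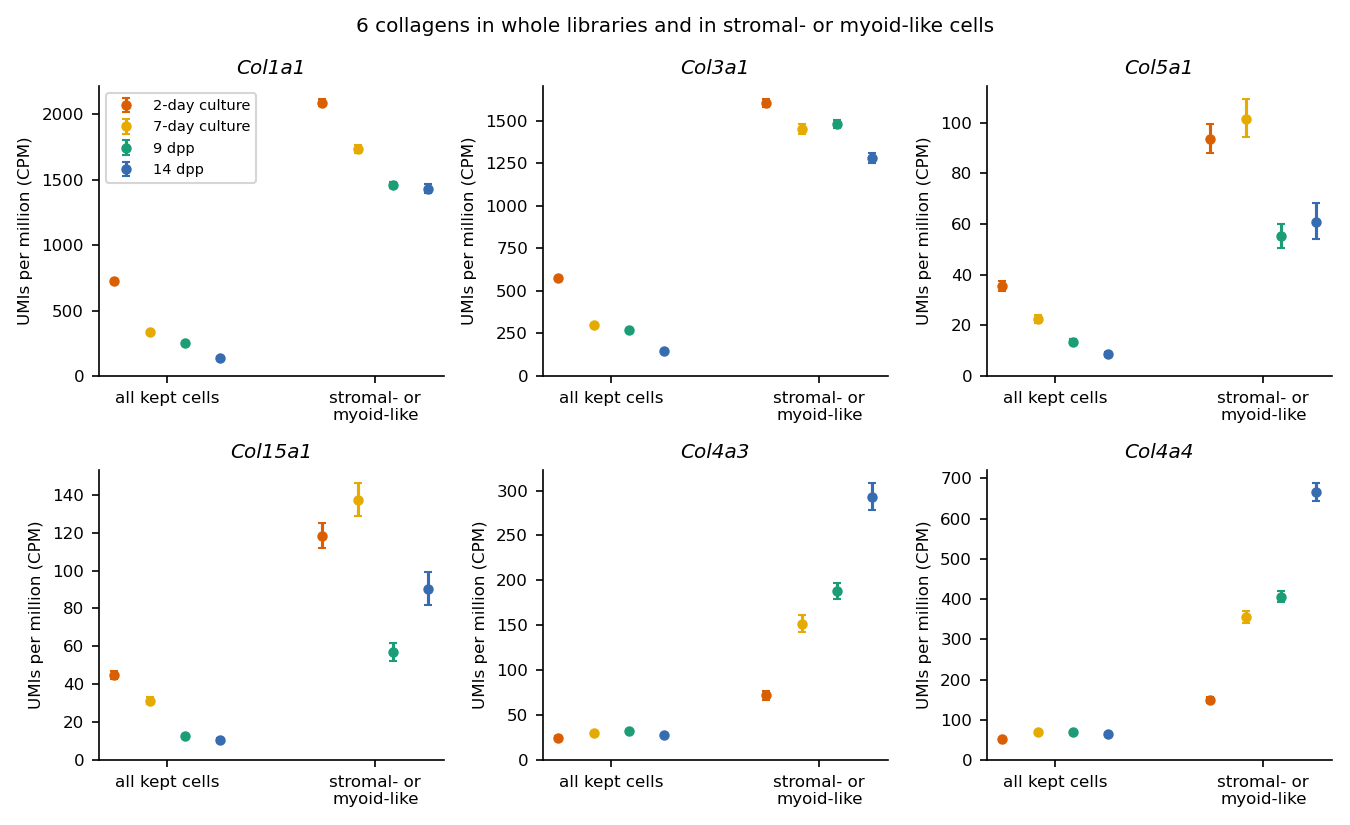
CPM of 6 collagens in whole libraries (left of each panel) and in stromal- or myoid-like cells (right), 1 point per library with its exact Poisson 95% interval. Col1a1, Col5a1 and Col15a1 are higher in each culture than at the matching age in both sets of cells, Col3a1 is close within the class, while Col4a3 and Col4a4 are lower in each culture within the class but in whole libraries only in the early pair.

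The 6 type IV genes lie as 3 pairs, each with its 2 genes head to head, and are given pair by pair. Col4a1 (ENSMUSG00000031502, chr8:11198423-11312826) and Col4a2 (ENSMUSG00000031503, chr8:11312805-11449287) encode the chains of every basement membrane. Their annotated starts overlap by 22 bases, printed here on the Col4a2 strand from GRCm38 (RefSeq, GRCm38.p6, chr8:11312805-11312826) because both genes start within it.
Col4a1 and Col4a2 start overlap: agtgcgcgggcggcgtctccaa
Col4a3 (ENSMUSG00000079465, chr1:82586921-82722059) and Col4a4 (ENSMUSG00000067158, chr1:82448423-82586849) encode chains of the specialised network known from the kidney glomerulus and also found in the wall of the seminiferous tubule. Their starts lie 72 bases apart, and all 71 bases between them (chr1:82586850-82586920, GRCm38, Col4a4 strand) are printed. This segment was chosen since both genes were on the lower side in each culture within stromal- or myoid-like cells.
Col4a3 and Col4a4 segment between starts: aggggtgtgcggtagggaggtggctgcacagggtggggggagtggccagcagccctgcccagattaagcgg
On neither strand did that segment hold the TATA box motif TATAAA, the CAAT box motif CCAAT or the GC box motif GGGCGG. RefSeq windows from 250 bases before to 50 after a start were available for 31 of the 40 members. In their 33 windows, searched on both strands, TATAAA occurred in 12.1%, CCAAT in 36.4% and GGGCGG in 69.7%, against 13.6%, 37.4% and 35.7% of the 32851 windows of all genes. Those 32851 windows, unlike the members, were not limited to genes with UMIs in these cells. The Col4a1 and Col4a2 windows share bases, among them the GGGCGG in the printed start overlap.

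Col4a1 in stromal- or myoid-like cells stood at 298 CPM after 2 days and 368 after 7 days of culture, 333 at 9 dpp and 318 at 14 dpp. Col4a2 stood at 242, 316, 208 and 274. Neither gene was more than 1.5-fold from its matching age in the class, with ratios of 0.895 and 1.16 for both pairs of Col4a1 and of 1.16 and 1.15 for Col4a2. Cells of the vessels, which were few, had higher levels of Col4a1. Pericyte-like cells had 503, 815, 1004 and 1018 CPM of it, from 21, 26, 45 and 57 cells, and endothelial-like cells had 541, 593, 1367 and 814, from 48, 19, 18 and 25 cells. In the early pair those are ratios of 0.501 and 0.396. Of the 149 pericyte-like cells 16.8% lay close to the limits of that class, and in at least 1 library the median UMIs of another class's markers (43) was above that of its own (11 to 30), since myoid markers were not counted against it.

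Col4a3 was lower in each culture than at the matching age within stromal- or myoid-like cells. It measured 72.0 CPM after 2 days and 152 after 7 days of culture, 188 at 9 dpp and 293 at 14 dpp, which is 0.384-fold (0.352 to 0.418) and 0.519-fold (0.478 to 0.562). Col4a4 measured 149, 355, 406 and 666 CPM, 0.366-fold (0.345 to 0.388) and 0.533-fold (0.506 to 0.562). The order of the 4 libraries was the same for both genes, with the 2-day culture lowest, 14 dpp highest and no overlap of the intervals. In whole libraries the ratios were 0.776 and 1.06 for Col4a3 and 0.725 and 1.09 for Col4a4, or at equal weights of cells 0.657 and 1.03, and 0.595 and 1.05.

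The 2 genes were found in the same cells. Of stromal- or myoid-like cells with a Col4a3 UMI, 63.6%, 86.1%, 91.7% and 92.8% also had a Col4a4 UMI, against 36.2%, 55.6%, 67.3% and 74.3% of all cells of the class. The ratio of Col4a3 to Col4a4 molecules stayed between 0.428 and 0.484 in the 4 libraries. After thinning, Col4a4 was detected in 24.4%, 41.3%, 46.1% and 61.1% of the class, and in 0.32 to 0.42% of germ-like cells (0.887 to 3.13% unthinned).

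Col4a3 and Col4a4 were mostly in the cells with contractile markers. Cells of the class were called myoid-leaning when the UMIs of 7 contractile markers (Acta2, Myh11, Actg2, Cnn1, Tagln, Myl9 and Des) were at least 3 times those of 7 stromal markers (among them Pdgfra, Dcn and Tcf21), stromal-leaning in the opposite case, and between otherwise. Myoid-leaning cells had 354 CPM of Col4a4 after 2 days and 896 after 7 days of culture, 704 at 9 dpp and 1047 at 14 dpp, and stromal-leaning cells had 39.9, 90.3, 117 and 197. In myoid-leaning cells the culture ratios were 0.502 and 0.856, and for Col4a3 they were 0.550 and 0.883. In stromal-leaning cells they were 0.342 and 0.458 for Col4a4 and 0.383 and 0.400 for Col4a3.

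The split of the class into these ranges differed between libraries too. Myoid-leaning cells were 27.3% of the class after 2 days and 31.4% after 7 days of culture, 48.4% at 9 dpp and 56.2% at 14 dpp, and the cells between the ranges were 25.8%, 18%, 8.93% and 5.08%. The 7 contractile markers summed to 11207, 18556, 22316 and 25470 CPM in myoid-leaning cells, in the same order of libraries as Col4a3 and Col4a4 in the class. Because these markers also set the ranges, a different mix of cells and a different marker level within cells cannot be told apart here. With the 3 ranges given equal shares in all libraries, Col4a4 had log2 ratios of -0.99 (early pair) and -0.37 (late pair), against -1.44 and -0.90 as measured. Col4a3 had -0.79 and -0.27 against -1.37 and -0.94. Both genes were then no longer past 2-fold, although still on the lower side, and the early pair had 4 members past 2-fold lower (Col5a3, Col8a2, Col17a1 and Col23a1) in place of 8 and 3 higher (Col12a1, Col15a1 and Col18a1) in place of 2, beside 6.51% lower and 5.65% higher over all genes of the class.

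**Figure D4:**
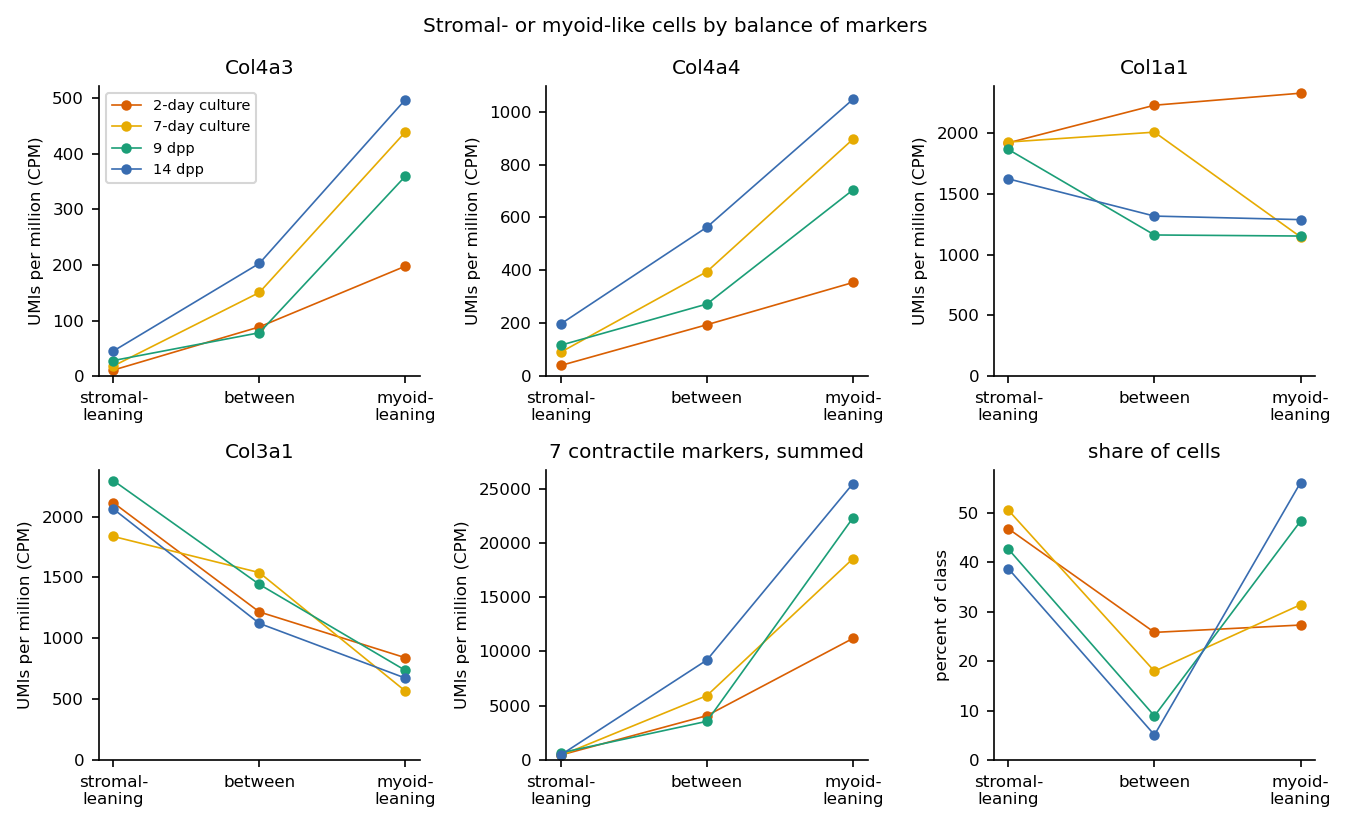
CPM of 4 collagens, summed CPM of the 7 contractile markers and percent of cells (vertical axes) in stromal-leaning, between and myoid-leaning cells (horizontal axis), 1 line per library. Col4a3 and Col4a4 are highest in myoid-leaning cells of every library, as are the contractile markers, and lowest there in the 2-day culture, while Col3a1 is highest in stromal-leaning cells and Col1a1 in myoid-leaning cells is highest in the 2-day culture.

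Col4a5 and Col4a6, the X-linked pair whose starts lie 1309 bases apart, were scarcer. In stromal- or myoid-like cells Col4a5 stood at 17.7 CPM after 2 days and 38.5 after 7 days of culture, 43.7 at 9 dpp and 61.5 at 14 dpp, with ratios of 0.405 (0.339 to 0.483) and 0.626 (0.529 to 0.741). Col4a6 stood at 4.47, 13.8, 10.7 and 12.4 CPM and was lower only in the early pair, 0.418-fold (0.289 to 0.597) against 1.11-fold (0.797 to 1.56). Over the 4 type IV genes outside the Col4a1 and Col4a2 pair, the 2-day culture was thus the lowest library in this class each time.

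The beaded filament genes of type VI collagen, which ties cells and basement membranes to the fibrils around them, were led by Col6a1 (ENSMUSG00000001119, chr10:76708792-76726168). Whole libraries had 149, 104, 119 and 49.9 CPM of Col6a1. Stromal- or myoid-like cells had 421, 506, 628 and 472. The 2-day culture was lowest and 9 dpp highest in the class, a ratio of 0.671 (0.645 to 0.698), and the late pair was close at 1.07 (1.02 to 1.13). Col6a2 and Col6a3 were on the same side in the early pair, 0.628-fold (0.596 to 0.662) and 0.524-fold (0.472 to 0.582), and within 1.5-fold in the late pair. Col6a4 was lower in both pairs, at 7.13 and 16.5 CPM in the cultures against 17.9 and 30.1. Col6a5 and Col6a6 had 86 and 205 UMIs in all, with 44.2% and 44.4% of them from Sertoli-like cells.

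The multiplexins Col15a1 and Col18a1 carry many interruptions in their helix, and their ends can be released as soluble fragments. Col15a1 (ENSMUSG00000028339, chr4:47208161-47313167), which anchors basement membranes to the fibrils beside them, was on the culture side in both pairs of whole libraries. It was at 44.8 CPM after 2 days and 31.2 after 7 days of culture, 12.5 at 9 dpp and 10.5 at 14 dpp, 3.59-fold (3.28 to 3.93) and 2.97-fold (2.69 to 3.28). With every cell weighted the same the ratios were 1.99 and 2.17. Within stromal- or myoid-like cells it was at 118, 137, 56.8 and 90.2 CPM, 2.08-fold (1.88 to 2.31) and 1.52-fold (1.36 to 1.71), with both cultures above both in vivo libraries. Endothelial-like cells, which were few, were on the other side, at 114, 124, 323 and 217 CPM. Their ratios were 0.352 (0.253 to 0.490) and 0.570 (0.412 to 0.788). Pericyte-like cells, also few, were on the culture side at 310, 181, 202 and 92.2 CPM. Their ratios were 1.53 (0.906 to 2.52) and 1.96 (1.14 to 3.44).

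Inside the stromal- or myoid-like class Col15a1 differed by range of cells. In myoid-leaning cells it was at 124 CPM after 2 days and 54.9 after 7 days of culture, 38.3 at 9 dpp and 58.2 at 14 dpp, so only the 2-day culture was high, 3.22-fold above 9 dpp. In stromal-leaning cells it was at 96.5, 152, 81.3 and 126 CPM, with ratios of 1.19 and 1.20. Col1a1 had the same form: 2328, 1145, 1152 and 1287 CPM in myoid-leaning cells, where only the 2-day culture stood out, 2.02-fold above 9 dpp, and 1920, 1926, 1865 and 1623 in stromal-leaning cells. Myoid-leaning cells were also shallowest in the 2-day culture, at a median of 2807 UMIs against 3614, 5142.5 and 3777, and the part of that depth in these 2 values was not tested.

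Over the myoid-leaning cells 26 members had enough UMIs, and the 2-day culture had 4 past 2-fold higher than 9 dpp (Col1a1, Col5a1, Col15a1 and Col18a1) and 3 lower (Col6a4, Col8a2 and Col23a1), beside 4.76% and 6.99% of genes. Over the stromal-leaning cells 28 members were tested, and Col18a1 was higher while 7 were lower (Col4a3, Col4a4, Col4a5, Col4a6, Col5a3, Col17a1 and Col23a1), beside 6.28% and 7.81%. In the late pair the myoid-leaning cells had Col13a1 and Col26a1 higher and Col23a1 lower, beside 4.02% and 4.39%. The stromal-leaning cells of that pair had 5 higher (Col4a1, Col6a4, Col9a2, Col26a1 and Col27a1) and 4 lower (Col4a3, Col4a4, Col5a3 and Col17a1), beside 6.82% and 4.93%. Col4a1 in stromal-leaning cells was at 254 and 364 CPM in the cultures against 174 and 179, with ratios of 1.46 and 2.03.

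The transmembrane members were a mixed set. Col13a1 (ENSMUSG00000058806, chr10:61838236-61979108), found at sites of cell adhesion, was at 51.4 CPM in stromal- or myoid-like cells after 2 days and 65.6 after 7 days of culture, 53.1 at 9 dpp and 24 at 14 dpp. Only 14 dpp was low, with ratios of 0.969 (0.856 to 1.10) in the early pair and 2.74 (2.23 to 3.38) in the late pair. Col26a1, which is not a transmembrane collagen and was first known from developing testis and ovary, had the same form at 40.4, 40.9, 53.4 and 19.9 CPM. Col23a1 was low in the 2-day culture alone, at 7.98 CPM against 18.6, 25.8 and 21.7. Col17a1, a part of hemidesmosomes, was at 3.80 and 3.33 CPM in the cultures against 13.9 and 6.70, from 226 UMIs in the class. By CPM plus 1, as used for the counts, Col17a1 was within 2-fold in the late pair.

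The short-chain gene Col8a2 was lowest in the 2-day culture, at 2.19 CPM against 4.06, 9.93 and 4.47 in the other libraries. Col8a1, of the same family, was past 2-fold lower only in the late pair, at 2.03 CPM after 7 days of culture and 5.89 at 14 dpp. Col7a1, the anchoring fibril of skin, had 127 UMIs in all and intervals that include no difference in both pairs of the class (1.54, 0.787 to 3.13, and 0.454, 0.149 to 1.28). Among fibril-associated genes Col16a1 had the most UMIs, 1390, and was within 1.5-fold in both pairs of the class. Col12a1 was at 1.96 CPM of the 2-day whole library and at most 0.470 elsewhere, from 117 UMIs. Col9a2 was at 7.10 CPM of the class after 7 days of culture and 2.64 at 14 dpp, 2.69-fold (1.44 to 5.40). Col20a1 had 90 UMIs in all and the transmembrane gene Col25a1 218, with intervals that include equal levels in both pairs of whole libraries.

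Sertoli-like cells, the supporting cells of the tubule, were the main source of Col18a1 and Col9a3 and carried Col4a5 in culture. They held 81.2% of the UMIs of Col18a1 (ENSMUSG00000001435, chr10:77052178-77166548), the precursor of endostatin. Col18a1 stood at 216 CPM in Sertoli-like cells after 2 days and 112 after 7 days of culture, 256 at 9 dpp and 242 at 14 dpp. Only the 7-day culture was low, 0.461-fold (0.425 to 0.50) of 14 dpp, against 0.844-fold (0.795 to 0.896) in the earlier pair. In stromal- or myoid-like cells Col18a1 was on the other side, at 25.3, 15.7, 9.18 and 9.75 CPM, 2.75-fold (2.15 to 3.55) and 1.60-fold (1.13 to 2.30). The germ-like level was 11.8, 8.98, 54.1 and 29.0% of these values, and the part of free RNA in them was not tested. Since its reads in that class were 4.5% of the gene's total, the whole-library ratios lay near those of Sertoli-like cells, at 0.893 and 0.598. At equal weights they were 1.007 and 0.517, so the early pair then showed almost no distance.

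Thinned Sertoli-like cells held Col18a1 in 34.9%, 20.2%, 41.0% and 37.4% of cells, and thinned germ-like cells in 0.12 to 0.96%. The shares had the same order of libraries as the CPM, while the unthinned shares of 52.5%, 59.9%, 88.5% and 79.4% did not. Endothelial-like cells held Col18a1 as well, at 367, 611, 323 and 215 CPM, with 216, 370, 88 and 83 UMIs from only 48, 19, 18 and 25 cells.

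Col9a3, a fibril-associated chain best known from cartilage, had 77.8% of its UMIs in Sertoli-like cells. Its levels there were 29.4, 16.2, 14.7 and 8.99 CPM, so the 2-day culture was highest and each culture exceeded its age match, by 1.99-fold (1.64 to 2.42) and 1.80-fold (1.37 to 2.37). Stromal- or myoid-like cells gave 0.4% of its UMIs.

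Col4a5 in Sertoli-like cells stood at 36.0 CPM after 2 days and 11.9 after 7 days of culture, 2.46 at 9 dpp and 1.77 at 14 dpp, from 254, 79, 37 and 22 UMIs. Both cultures were far above both in vivo libraries, 14.7-fold (10.4 to 21.3) and 6.72-fold (4.15 to 11.3). It was found in 8.53% of thinned Sertoli-like cells after 2 days and in 1.35% after 7 days of culture, against 0.23% at 9 dpp and 0.57% at 14 dpp, and in 0.12 to 0.33% of germ-like cells. The unthinned shares in Sertoli-like cells were 16.6%, 11.6%, 4.21% and 2.00%. Sertoli-like and stromal- or myoid-like cells were thus on opposite sides for Col4a5 in both pairs, a contrast that rests on 1 library per group and was not tested.

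Sertoli-like cells of the 2-day culture were shallow, with a median of 3195 UMIs against 9265, 14000 and 9905.5 in the other libraries. Among those with at least 5000 UMIs Col4a5 was at 37.3 CPM in the 2-day culture and 2.50 at 9 dpp, and the log2 ratio was 3.45 against 3.42 over all cells of the class. The log2 ratio of Col9a3 was 0.92 in those deep cells. Below 5000 UMIs it was -0.09, but there 9 dpp had only 9 UMIs from 69 cells and an interval of 17.1 to 70.8 CPM. For Col18a1 the deep and shallow values were -0.25 and -0.29. Of 12 Sertoli markers 8 were lower and 1 higher in culture in both pairs, and their summed level was 16140, 18320, 25099 and 24739 CPM. Amh was at 34.3, 137, 753 and 169 CPM of the class and Sox9 at 514, 499, 375 and 227. The part of these marker differences in the collagen values was not tested.

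In the Sertoli-like class 17 members had enough UMIs, and 7 were past 2-fold higher in the 2-day culture than at 9 dpp (Col1a1, Col1a2, Col3a1, Col4a5, Col15a1, Col16a1 and Col27a1) with 0 lower, beside 6.58% and 6.2% of genes. Col1a1, Col1a2 and Col3a1 in Sertoli-like cells were at 1.08 to 1.49% of their stromal- or myoid-like level in the 2-day culture, and the 14 stromal and contractile markers were at a median of 1.33% (0.197 to 22.4%). At 9 dpp the values were 0.319 to 0.409% and 0.453% (0.216 to 7.05%). In the 2-day culture Col1a1 was at 67.8 CPM in Sertoli-like cells below 5000 UMIs and 17.5 in deeper ones, Col1a2 at 64.1 and 20.1, Col3a1 at 42.5 and 19.4, and the stromal marker Dcn at 93.9 and 39.7. In the deeper cells of 9 dpp they were at 4.59, 8.23, 6.01 and 11.3. How much of these levels is free RNA was not tested. In the late pair Col4a5 and Col27a1 were higher and Col18a1 was lower, beside 9.85% and 8.03% of genes. Col27a1 in Sertoli-like cells was at 3.26 and 6.46 CPM in the cultures against 1.06 and 1.04.

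**Figure D5:**
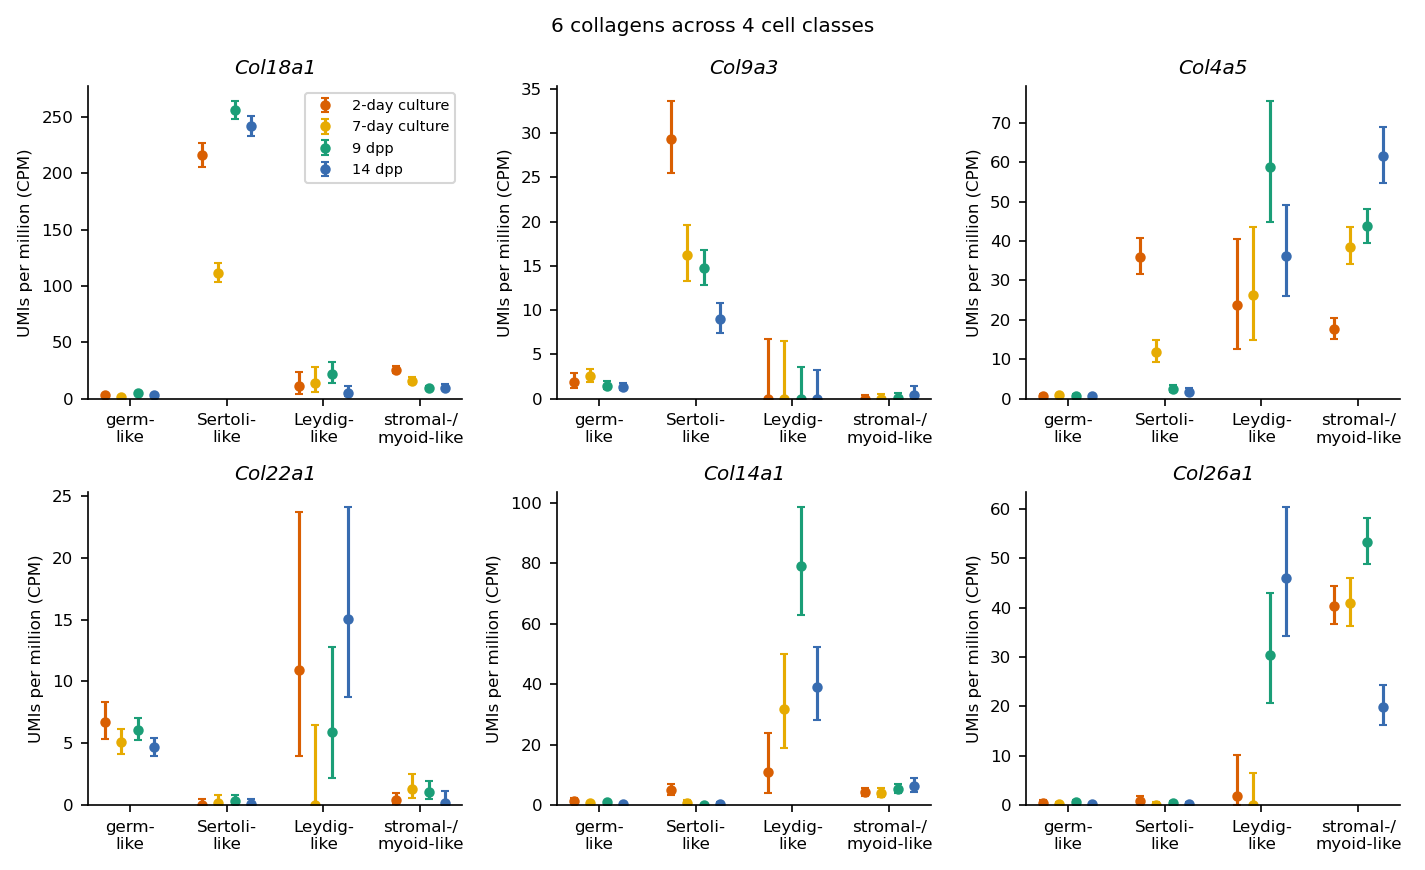
CPM of 6 collagens in the 4 larger cell classes (horizontal axis), 1 point per library with its exact Poisson 95% interval. Col18a1 and Col9a3 stand in Sertoli-like cells, Col4a5 is high in Sertoli-like cells of the 2-day culture (36.0 CPM) but lowest there in stromal- or myoid-like cells (17.7 CPM), Col22a1 is in germ-like and Leydig-like cells, and Col14a1 and Col26a1 vary in Leydig-like cells with wide intervals.

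Leydig-like cells, the steroid-producing cells, carried Col3a1 and Col1a2 with little Col1a1. Their own 6 markers differed between the libraries: Cyp17a1 was at 63.6, 230.4, 5214 and 1884 CPM and Insl3 at 160.0, 96.7, 1831 and 772, both far lower in culture. Cyp11a1 was at 5647, 5183, 3404 and 3637 CPM, Hsd3b1 at 1731, 4615, 4608 and 2680, Star at 602, 106, 837 and 1048 and Lhcgr at 25.5, 111, 152 and 95.5. The part of this difference in the collagen values of the class was not tested. Col3a1 was at 556 CPM after 2 days and 445 after 7 days of culture, 679 at 9 dpp and 662 at 14 dpp, and Col1a2 at 304, 417, 562 and 378. Col1a1 was at 89.1, 21.1, 49.9 and 2.65 CPM. The ratio of Col1a1 to Col1a2 was 0.293, 0.0506, 0.0889 and 0.007, below the 0.673 to 0.867 of stromal- or myoid-like cells in each library, so these genes were not at one ratio in both classes.

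Col14a1, a fibril-associated chain, was the member with its highest level in Leydig-like cells in all libraries, at 10.9, 31.7, 79.2 and 38.9 CPM. Of 13 members tested there, 0 were past 2-fold higher in the 2-day culture than at 9 dpp and 6 were lower (Col4a5, Col6a1, Col6a2, Col13a1, Col14a1 and Col26a1), beside 5.95% and 11.5% of genes. In the late pair 3 were higher (Col1a1, Col6a2 and Col11a1) and 3 lower (Col4a1, Col4a2 and Col26a1), beside 7.83% and 8.23%. These values come from 55 to 78 cells per library. Col26a1 had 1 UMI in Leydig-like cells of the 2-day culture and 0 in the 7-day culture, against 31 at 9 dpp and 52 at 14 dpp.

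Germ-like cells had low levels of the abundant collagens. Col1a1, Col1a2 and Col3a1 there were at 0.203 to 1.15% of their stromal- or myoid-like level over the 4 libraries, where the medians of the 14 stromal and contractile markers were 0.232 to 0.935%. How much of this is free RNA was not tested. Col22a1, a fibril-associated chain of tissue junctions, had 86.3% of its UMIs in germ-like cells, at 6.72, 5.09, 6.09 and 4.67 CPM. The libraries differed little, with ratios of 1.10 (0.838 to 1.44) and 1.09 (0.842 to 1.40). Its UMIs were spread over 80, 100, 172 and 152 cells, and Sertoli-like cells held 0, 1, 5 and 1 UMIs of it. In thinned germ-like cells the shares were 1.18%, 1.31%, 1.08% and 1.25%, and unthinned 2.84%, 3.93%, 6.82% and 4.14%.

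Some members stood at larger shares of the class. Col9a2 in germ-like cells was at 15.7 to 41.2% of its stromal- or myoid-like level, Col17a1 at 9.25 to 39.3%, Col8a2 at 7.32 to 41.7% and Col16a1 at 5.18 to 13.8%, from 155, 226, 166 and 856 UMIs in that class. Col18a1, with 508 UMIs in that class, was at 8.98 to 54.1%. Col5a1 was at 6.05, 3.97, 7.01 and 4.43 CPM in germ-like cells, which is 3.91 to 12.7% of its stromal- or myoid-like level. Its culture ratios there were 0.863 (0.652 to 1.13) and 0.896 (0.676 to 1.18). Col2a1, the cartilage fibril gene, had 81.7% of its 93 UMIs in germ-like cells. Of 28 members tested in germ-like cells, Col1a2 and Col3a1 were past 2-fold higher in the 2-day culture than at 9 dpp and 0 were lower, beside 1.31% and 3.1% of genes, and in the late pair 0 were past 2-fold in either direction, beside 0.742% and 2.23%.

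Genes that modify, fold, cut and link collagens were compared as lists. Of 24 tested genes of collagen synthesis and processing, 4 were past 2-fold higher in whole libraries of the 2-day culture than at 9 dpp (P4ha3, Bmp1, Pcolce and Adamts2) and P3h3 was lower, beside 4.2% and 3.41% of all genes. The late pair also had 4 higher (P3h2, Fkbp10, Bmp1 and Adamts2) and P3h3 lower, beside 3.58% and 2.65%. Within stromal- or myoid-like cells the counts were 0 and 0 of 22 in the early pair, beside 5.79% and 7.27% of genes, and P3h2 alone was higher in the late pair, beside 5.07%. Serpinh1, the collagen chaperone HSP47, was at 609, 265, 359 and 168 CPM of whole libraries, and the procollagen peptidase enhancer Pcolce at 497, 211, 225 and 140. Ppib, the cyclophilin that helps collagen to fold, was at 544, 460, 394 and 358.

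In whole libraries 2 of 4 tested crosslinking genes were past 2-fold higher in the early pair (Lox and Loxl1) and Loxl2 was lower, beside 4.2% and 3.41% of all genes. In the late pair Lox was higher and Loxl2 lower, beside 3.58% and 2.65%. Within the class Lox, which starts the covalent links between fibrils, was the one past 2-fold, in the early pair (beside 5.79% of genes), at 142, 37.8, 55.0 and 21.5 CPM. The 2-day culture was the highest library, as for Col1a1. Of 9 collagen receptor and uptake genes tested in whole libraries Itga1 and Ddr2 were past 2-fold higher in the early pair, beside 4.2% of all genes, and 0 of the 6 tested in the class were past 2-fold in either pair. Of 14 tested basement membrane partners in the class, Lama4 was higher and 5 were lower in the early pair (Lama2, Lamb1, Lamb2, Lamc3 and Nid2), beside 5.79% and 7.27% of genes in the class. In the late pair 0 were higher and 3 lower (Lamb2, Lamc3 and Nid2), beside 5.07% and 4.61%. The laminin chain gene Lamc3 was at 15.1, 57.5, 81.1 and 123 CPM and Lamb2 at 18, 35.1, 59.3 and 128. Both had the library order of Col4a3 and Col4a4, which is also that of the contractile markers and of the share of myoid-leaning cells, and the part of these in the laminin values was not tested.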

How the data were processed

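Cell Ranger 3.0.2 and the mm10 build are named in the submitters' processing notes. The deposited matrices hold raw UMI counts per gene and cell, per the file headers and values. Cells entered with 500 or more genes and no more than 20% of UMIs from mitochondrial genes, and Scrublet calls (92 to 251 per library) were removed. A cell joined a class with at least 5 UMIs from at least 2 of its markers and at least 3 times the UMIs of any other class, leaving out myoid markers when pericyte-like cells were called. UMIs were summed per library and class, scaled to CPM, and compared as log2 ratios of CPM plus 1. A member counted as higher or lower past 2-fold, in classes over members with at least 50 UMIs there. Intervals are exact Poisson (CPM), conditional exact (ratios) and Clopper-Pearson (shares), at 95%. The members, markers and lists were chosen with earlier results of these data known. Genes given in full are those with the most UMIs per structural group and the 5 most distant in each direction with the same sign in both pairs, with others named after their values were seen. With no replicates, the count models of edgeR 4.0.16 were used only for TMM scaling, as an alternative. The ratio and interval steps were tested on simulated data. Python 3.11.15, numpy 2.4.6, scipy 1.17.1, pandas 2.3.3 and scanpy 1.11.5 were used. Coordinates came from GENCODE M21 by gene ID and start windows from RefSeq on GRCm38.p6, which shares its coordinates with mm10.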

Additional observations from a re-analysis of the deposited data

Results flagged for a closer look

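Col4a5, Col6a2 and Col26a1 were past 2-fold on opposite sides in different classes or pairs. None of these contrasts was tested, since each group was 1 library. Col4a5 in the 2-day culture against 9 dpp had a log2 ratio of 3.42 in Sertoli-like cells, -1.28 in Leydig-like cells and -1.26 in stromal- or myoid-like cells. Col6a2 in Leydig-like cells was at -1.88 for the earlier pair (2-day culture against 9 dpp) and at 1.06 for the later pair. The later value rests on 9 UMIs in the 7-day culture and 8 at 14 dpp. That is a ratio of 2.24 with an interval of 0.766 to 6.66, which includes equal levels. Col26a1 in the 7-day culture against 14 dpp was on opposite sides, at 1.002 in the stromal- or myoid-like class and at -5.55 in the Leydig-like class, where the 7-day culture had 0 UMIs and 14 dpp had 52, so that ratio depends on the constant added to CPM.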

How the results depend on the processing

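No paired analysis was possible because each group had 1 library. Of 184 recomputed counts of members past 2-fold, 131 stayed within 1.5 times their value and 53 moved. Of 936 recomputed single-gene ratios 813 stayed within the counting interval, 123 moved, and 0 of those past 2-fold changed sign. Smaller ratios did turn: with each cell weighted the same, the class ratios of Col3a1 went to 0.966 and 0.96, and the early whole-library ratios of Col6a1 and Col18a1 to 0.879 and 1.007. The counts that moved are given as members higher or lower, first in all kept cells and then in stromal- or myoid-like cells, as main count to alternative. The early pair is the 2-day culture against 9 dpp and the late pair the 7-day culture against 14 dpp.

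With 0.1 added to CPM, all kept cells had lower counts of 6 to 10 at 14 dpp against 9 dpp and 4 to 7 in the 7-day against the 2-day culture, where the higher count went from 0 to 2, and the class had lower counts of 1 to 4 in the late pair, 2 to 6 at 14 dpp against 9 dpp and 1 to 4 between the cultures. The shares over all genes moved as well, for the lower side from 1.97% to 4.58% between ages and from 2.37% to 4.66% between cultures of all kept cells, and in the class to 6.04%, 4.59% and 4.62%. For the higher side between cultures of all kept cells the share went from 4.51% to 8.13%. With 10 added, all kept cells went from 7 to 4 higher in the early pair, 10 to 2 higher in the late pair, 6 to 2 lower between ages and 4 to 2 lower between cultures. The class then went from 2 higher and 8 lower to 0 and 2 in the early pair, from 4 and 1 to 1 and 0 in the late pair, from 2 to 1 lower between ages and from 6 and 1 to 1 and 0 between cultures, while the share of all genes higher went from 4.2% to 1.67% in the early pair of all kept cells and from 3.58% to 0.939% in the late pair, and that of genes lower to 0.481% between ages and 0.902% between cultures. In the class the shares higher and lower were then 2.90% and 2.22%, 1.68% and 1.41%, 0.379% and 0.80%, and 0.767% and 1.24%. With each cell weighted the same, all kept cells went from 7 higher and 0 lower to 0 and 1 in the early pair, 10 to 6 higher in the late pair and 4 to 1 lower between cultures, and the class from 2 and 8 to 1 and 5, 1 to 2 lower in the late pair, 2 to 4 lower between ages and 1 to 2 lower between cultures, beside 4.90%, 3.18% and 3.58% of genes lower in the last 3. The 1 lower between cultures of all kept cells was beside 2.00% of genes.

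A fold of 1.5 gave all kept cells 11 higher and 1 lower in the early pair, 19 and 1 in the late pair, 17 lower between ages, and 1 higher and 11 lower between cultures, and the class 4 higher in the early pair, 8 and 9 in the late pair, 4 and 10 between ages and 11 and 5 between cultures. Over all genes that fold gave 8.81% higher and 11.3% lower in the early pair of all kept cells, 9.04% and 7.50% in the late pair, 8.96% and 8.54% between ages and 12.1% and 7.39% between cultures, and in the class 10.0% and 19.4%, 11.2% and 11.3%, 7.30% and 9.08%, and 14.5% and 8.30%. In the class, a class rule of 10 UMIs and 5 times gave 2 lower in the late pair, 4 between ages and 2 between cultures (4.94%, 3.07% and 3.62% of genes). The stricter cell filter (1000 genes, 10% mitochondrial) gave 2 lower in the late pair and 4 between ages (4.59% and 3.02%). Subtracting germ-like CPM gave 3 lower both in the late pair and between cultures (8.98% and 6.73%), a minimum of 200 UMIs gave 0 and 0 (3.35% and 3.03%), no minimum gave 2 lower in the late pair (3.81%), and TMM scaling gave 2 lower between cultures (4.06%). TMM moved the median log2 ratio of all genes from -0.12 to 0.02 in the early pair of all kept cells and from -0.18 to -0.03 in the class, and between cultures from 0.07 to -0.04 and from 0.10 to 0.01. Equal shares of the 3 ranges, chosen after seeing the data, gave 4 lower in the early pair, and 4 higher and 3 lower in the late pair, beside 5.06% and 4.15% of genes.

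With 1 library per group, differences between animals or cultures cannot be told apart from the conditions. Counts below about 100 UMIs, as for Col2a1, Col6a5, Col20a1 and Col24a1, leave wide intervals.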
